A study of Mus musculus with 16 samples.

Results

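The regions described here are the 1000 stretches of 500 bp at which RNA polymerase II (Pol2) was lowest in activated B cells given 10058-F4, relative to activated B cells without it. They were taken from 45878 bins of chromosomes 1 to 19 that held at least 20 Pol2 reads over both libraries, and make up 2.18% of them. Each library was scaled to RPM, reads per 1e6 reads on these chromosomes, 0.1 RPM was added to both sides, and bins were ranked by the log2 ratio of the library with 10058-F4 over the library without it. The ratio therefore chose the bins, and its values at them are given as a description, with no test. The 45878 bins are called kept bins below, the 1000 the lowered bins, and the 1000 kept bins at the other end of the ranking the most raised bins.

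The data are ChIP-seq libraries, which sequence the DNA bound by an immunoprecipitated protein, from mouse splenic B and T cells. B4 denotes B cells treated for 4 h with lipopolysaccharide (LPS), a component of bacterial walls that activates B cells, at 25 µg/ml, and B4 with 10058-F4 denotes cells given LPS and 10058-F4 for 4 h, at a dose that the labels do not state. B0 denotes quiescent B cells, and T4 and T14 denote T cells given 7.5 µg/ml of concanavalin A, a T cell activator, for 4 h and 14 h. B4 with 10058-F4 had 1 Pol2, 1 Myc and 2 IgG libraries, B4 had 1 Pol2, 2 Myc and 3 IgG libraries, and each other state had 1 Myc and 1 IgG library. The titles of B4 Pol2 and of B4 IgG replicate 2 carry the mark wt, which those of the library with 10058-F4 do not, and the labels give no genotype, strain or age and do not say how many animals were pooled. Apart from T14, the names of the deposited Myc files mark them GFP, so Myc was read through a fluorescent tag. Nothing in the labels says that replicate libraries came from separate cultures, so a p-value below measures the spread between libraries, which may be technical.

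Pol2 transcribes protein-coding genes, and in ChIP it gives sharp peaks near gene starts and lower signal along the transcribed body and past its end. Myc is a transcription factor that binds DNA as a dimer with Max, mostly near the starts of expressed genes. 10058-F4 is a compound that keeps Myc from forming that dimer. IgG libraries come from a non-specific antibody and give the background of each region. Coordinates are those of the mouse build mm8; its annotation was not used here, so no bin was assigned to a gene, exon or intron, and no sequence is shown.

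The libraries held 1278471 to 7433203 reads on chromosomes 1 to 19. Pol2 had 5130471 reads with 10058-F4 and 2377368 without it, a ratio of 2.16, so that a bin with equal reads in both has a log2 ratio near -1.07 to -1.11. The libraries of B4 fall into 2 sets by the reads on chromosome X as a percentage of those on chromosome 3. This was 35.1% in Pol2 with 10058-F4 and 36.9% in B4 Pol2, with 38.7% in IgG replicate 1 with 10058-F4 and 36.8% in B4 IgG replicate 2, against 60.1% to 69.8% in the other 6 B4 libraries, which include all B4 Myc libraries. Pol2 and Myc of the same treatment were thus read from libraries that stand apart on chromosome X, and the part of that in the values below was not tested. In B0 the percentage was 42.0% in Myc and 43.7% in IgG, so B0 Myc and B4 Myc stand apart on chromosome X as well. The files of the 2 T14 libraries carry names that contradict their labels, and the T14 values are given as labelled.

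Over all kept bins Pol2 was higher with 10058-F4: the median log2 ratio was 0.63, and 20.4% of kept bins were below 0. The minimum of 20 reads was on raw reads of both libraries summed, which favours bins high in the deeper library, the one with 10058-F4. The median was 0.55 at kept bins with 20 to 29 reads and 0.65 at those with 100 or more. The part of the minimum in these values was not tested. Kept bins held 39.8% of the Pol2 reads with 10058-F4 and 26.5% of those in B4. At the lowered bins the log2 ratio ran from -4.92 to -1.07, with a median of -1.35. The median bin held 11 reads (2.14 RPM) with 10058-F4 and 15 reads (6.31 RPM) in B4. Raw reads were fewer with 10058-F4 in 838 lowered bins, equal in 162 and more in 0. The ranking largely fixed this, since its last place fell at 11 reads in both libraries. A counting interval at 95% lay below 0 in 768 of the 1000 bins. It covers counting error only and was computed on bins chosen for low values, so it is no test. With 1 Pol2 library on each side, the effect of 10058-F4 and a difference between the libraries cannot be told apart.

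**Figure D1:**
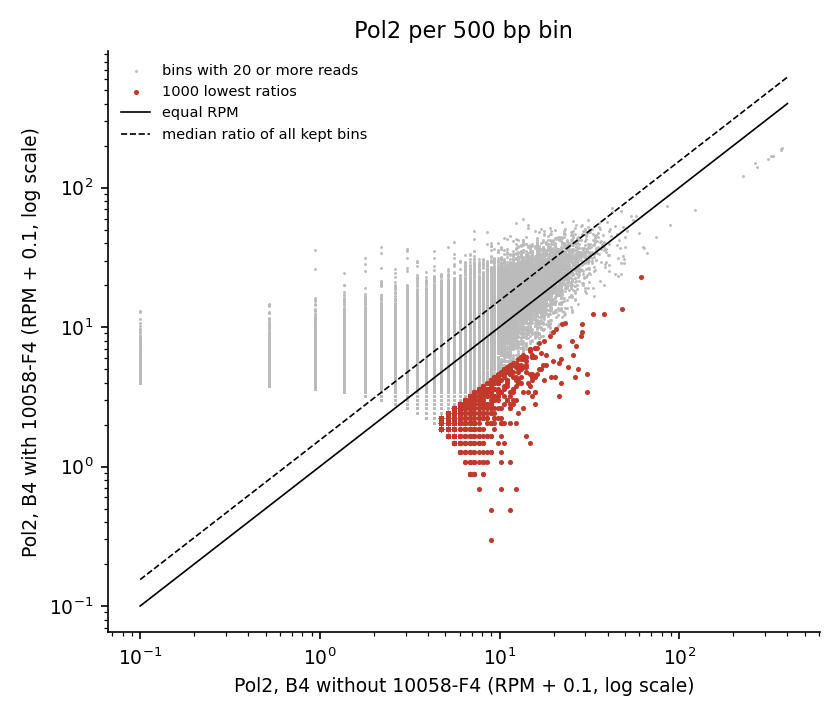
Each point is a 500 bp bin, with Pol2 in B4 without 10058-F4 on the x axis and Pol2 in B4 with 10058-F4 on the y axis, both in RPM plus 0.1 on log scales. Grey points are the 45878 kept bins, red points the 1000 lowered ones; the solid line is equal RPM and the dashed line is the kept bins' median log2 ratio of 0.63.

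Most lowered bins were thinly covered. Of the 1000, 634 held 20 to 29 Pol2 reads over both libraries, 256 held 30 to 49, 99 held 50 to 99 and 11 held 100 or more. The share of kept bins that were lowered bins was 4.5% in the thinnest of these classes, 2.02% and 0.799% in the next, and 0.163% in the deepest. The last place was decided by a tie: 37 lowered bins and 8 bins just outside had 11 reads in both libraries and the same log2 ratio of -1.07. Ranks 998 to 1000 fell at chr13:23453501-23454000, chr13:52610001-52610500 and chr14:30234001-30234500. The 3 bins just outside were chr15:67007001-67007500, chr15:74816501-74817000 and chr16:55741501-55742000.

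Because few reads chose each bin, the reads of each Pol2 library were split at random into 2 parts, an alternative chosen after seeing the data. Bins with at least 10 reads in the first part were ranked on that part alone, and the ratio was then read from the second. The 1000 lowest bins had a median log2 ratio of -1.74 in the part that ranked them and -0.73 in the other, against 0.64 and 0.65 over all bins so kept. In the part not used for ranking, 700 of the 1000 lay below 0 and 300 did not, against 24.1% of all bins so kept below 0. Only 463 of them were among the 1000 bins described here. The values above and below at single lowered bins are thus more extreme than the same libraries give in unused reads. The 303 of these bins that lay within 5 kb of another had a median of -1.37 in the unused part, with 87.8% below 0. The 697 single ones had a median of -0.35, with 62.3% below 0. Both parts come from the same 2 libraries, so the split bears on counting error and not on the spread between libraries.

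The 5 lowest ratios were at bins nearly empty with 10058-F4. At chr11:106318501-106319000 Pol2 had 1 read with 10058-F4 and 21 in B4, a log2 ratio of -4.92 (95% counting interval -10.9 to -2.87). At chr10:126918501-126919000 it had 2 and 27 reads, a log2 ratio of -4.55 (-7.98 to -2.87). The next were chr2:102695501-102696000, with 2 reads with 10058-F4 and 21 in B4, chr11:117638501-117639000, with 3 and 29, and chr10:126577501-126578000, with 3 and 24. Myc reads at these 5 bins were 0 to 2 in B4 with 10058-F4 and 0 to 4 in each B4 library, too few to say whether Myc was present.

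The bins with the highest B4 Pol2 lay in few places, and 3 of the 5 fell in the same domain on chromosome 7. At chr7:44708001-44708500 Pol2 was 22.8 RPM (117 reads) with 10058-F4 and 61.4 RPM (146 reads) in B4, a log2 ratio of -1.43 (95% counting interval -1.79 to -1.07). At chr7:44704501-44705000 it was 13.5 RPM with 10058-F4 and 48.0 RPM in B4, and at chr7:44708501-44709000 12.3 and 37.9 RPM. The fifth, chr2:34763001-34763500, had 4.48 RPM with 10058-F4 and 30.7 RPM in B4, a log2 ratio of -2.75 (-3.52 to -2.08). The remaining one, chr2:98467001-98467500, had 12.3 RPM with 10058-F4 and 33.2 RPM in B4, but it is also a bin where IgG was high, as described below.

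Some lowered bins lay close together, though most stood alone with gaps of up to 5 kb. Joined over gaps of up to 5 kb, the 1000 bins formed 690 domains, of which 567 were single bins and 123 held 2 or more. Those 123 domains held 433 bins, or 43.3% of the 1000, and 27 of them held 5 or more bins each, 205 in all. The most raised bins formed 809 domains by the same joining, with 28.4% of bins in domains of 2 or more and 9 domains of 5 or more. With directly adjacent bins only, 22.6% of lowered bins and 15.0% of the most raised bins had a neighbour in their own set. Adjacent bins can share fragments, and kept bins themselves lie close together, so these shares describe positions and carry no test.

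Domains of 2 or more spanned a median of 3.5 kb and at most 26.0 kb. Beside their 433 lowered bins they enclosed 254 kept bins that were not low enough to be chosen, and 189 of these, 74.4%, had a ratio below 0, against 20.4% of all kept bins. Such bins lay in 63 of the 123 domains, and summed over each domain's unchosen kept bins Pol2 RPM was lower with 10058-F4 than in B4 in 51 of the 63. The domains were drawn from the same Pol2 libraries, and bins that adjoin a chosen one can share its fragments. Low ratios at enclosed bins are thus partly built in.

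The domain with the most lowered bins was chr2:34760501-34786500, with 19 among 40 kept bins. Its Pol2 was 10.5 RPM per kb with 10058-F4 and 17.96 RPM per kb in B4, a log2 ratio of -0.78 over the span, and 34 of its 40 kept bins were below 0. Its chosen bins stood on lower stretches as well as on peaks, and other peaks of the same span were as high with 10058-F4 as in B4. The domain chr11:117627501-117643500 had 16 lowered bins among 21 kept bins, all 21 of them below 0. There Pol2 was 4.67 RPM per kb with 10058-F4 and 14.7 RPM per kb in B4, a log2 ratio of -1.65.

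A domain on chromosome 7, chr7:44704501-44718500, held 15 lowered bins among 22 kept bins and had the most B4 Pol2 per kb of the first 10. It had 15.2 RPM per kb with 10058-F4 and 38.8 RPM per kb in B4, a log2 ratio of -1.35. The domain chr16:84586001-84601500 also held 15, with all of its 21 kept bins below 0, and had 5.28 RPM per kb with 10058-F4 and 16.0 RPM per kb in B4. In the plot of these 4 domains the sharp peaks on either side of the chromosome 11 span reach about the same height in both libraries, while the broad signal between them is lower with 10058-F4. Beside the chromosome 16 span, the peak that adjoins it is lower with 10058-F4 and the one farther out is not.

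**Figure D2:**
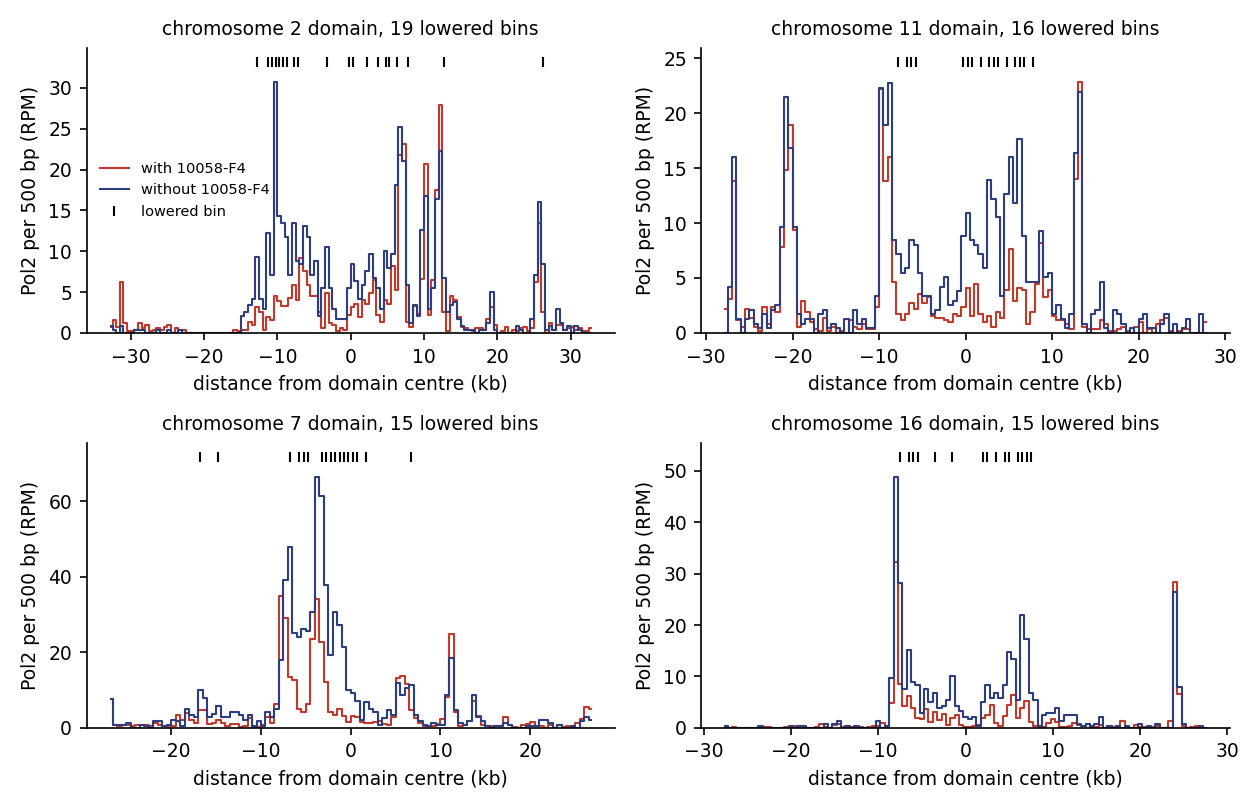
Pol2 per 500 bp (RPM) in B4 with 10058-F4 (red) and without it (blue) across the 4 domains with the most lowered bins and 20 kb on either side, by distance from the domain centre in kb. Black ticks mark lowered bins, 19, 16, 15 and 15 of them inside the domains; ticks outside the domain are further lowered bins more than 5 kb away.

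The other 6 of the first 10 domains held 7 to 9 lowered bins each. The domain chr13:43805501-43820000 had 15.9 RPM per kb with 10058-F4 and 26.0 in B4, and chr8:3679001-3688500 had 6.42 with 10058-F4 and 14.1 in B4, with 9 lowered bins in each. With 8 each, chr4:44986001-44995000 had 10.3 RPM per kb with 10058-F4 and 21.6 in B4, and chr19:46357001-46371000 had 15.5 and 20.4. The domains chr17:28055501-28060500 and chr9:7773001-7789500 held 7 each, with 9.12 RPM per kb with 10058-F4 and 18.003 in B4 on chromosome 17, and 2.75 and 7.47 on chromosome 9. Across the first 10 domains, 70 of 90 enclosed kept bins that were not chosen, 77.8%, were below 0, a share with the same limit as that over all domains.

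Pol2 at kept bins near the chosen ones, but not among them, was less raised with 10058-F4 than at kept bins in general, and its median log2 ratio was below 0 only up to 2 kb away. Kept bins that directly adjoined a lowered bin, without being one, had a median log2 ratio of -0.11, and 56.6% of these 565 bins were below 0. The median was -0.02 at 1 to 2 kb, 0.08 at 2.5 to 5 kb and 0.19 at 5.5 to 10 kb, where 39.9% were below 0. Around all kept bins the same medians were 0.61 to 0.65, with 20.1% to 21.6% below 0. The nearest bins can share fragments with the chosen ones, which those at 5.5 to 10 kb cannot at these fragment lengths.

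The mean profile includes every bin around a lowered bin, other lowered bins among them, so its flanks are partly fixed by the ranking as well. At the lowered bins mean Pol2 was 2.64 RPM with 10058-F4 and 7.74 RPM in B4, a difference fixed by the choice. At 2 kb downstream in chromosome order it was 2.30 RPM with 10058-F4 and 3.18 RPM in B4, and at 10 kb upstream it was 1.83 and 2.05 RPM. Around all kept bins the order was the other way: 1.77 RPM with 10058-F4 and 1.34 RPM in B4 at 2 kb, and 1.05 and 0.853 RPM at 10 kb. Both libraries had more Pol2 10 kb from a lowered bin than 10 kb from a kept bin, and lowered bins had a median of 4 other kept bins within 5 kb, against 2 for kept bins. The most raised bins had a median of 3, and 86.1% of lowered bins and 87.6% of kept bins had any.

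**Figure D3:**
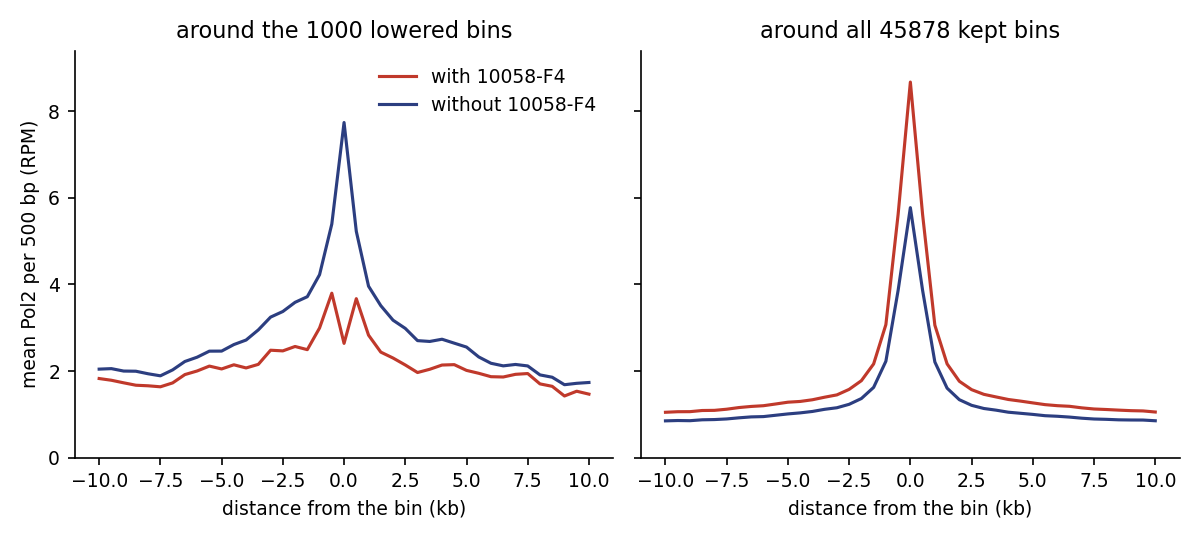
Mean Pol2 per 500 bp (RPM) by distance in kb from the bin, with 10058-F4 (red) and without it (blue), around the 1000 lowered bins on the left and all 45878 kept bins on the right. At the bin itself the values are 2.64 and 7.74 RPM on the left, where the ranking fixed the difference, and 8.67 and 5.77 RPM on the right; the blue line stays above the red one out to 10 kb on the left only, where the flanks hold other lowered bins too.

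Lowered bins were seldom the summit of their surroundings with 10058-F4. They held the most Pol2 reads within 2 kb in 20.3% of cases in the library with 10058-F4 and in 42.4% in the B4 library, against 44.1% and 39.2% for all kept bins. Within 10 kb, 911 lowered bins had another kept bin, and the strongest of these with 10058-F4 was stronger than the lowered bin itself in 98.0% of cases. That strongest neighbour had a median log2 ratio of 0.31, against 0.72 for the strongest neighbours of kept bins, and 30.6% were below 0, against 11.2%. The strong Pol2 sites beside lowered bins were therefore mostly higher with 10058-F4, although by less than beside kept bins in general. The choice of a low value favours bins that are no summit with 10058-F4, and the neighbour was picked by its level in that library, which favours a high ratio in both sets.

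By chromosome, the share of kept bins that were lowered bins ran from 0.941% on chromosome 18 to 3.33% on chromosome 7. Chromosome 11 held the most, 127 of 4486 kept bins (2.83%), and chromosome 7 followed with 111 of 3337. Chromosome 1 had 27 of 2635 (1.02%) and chromosome 14 had 16 of 1491 (1.07%). Bins of 1 domain are not independent, so these shares were not tested.

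A small group of lowered bins had high reads in the IgG libraries. With at least 50 reads summed over 7 IgG libraries (leaving out the one labelled T14 IgG), 14 lowered bins, or 1.4%, were IgG-rich, against 204 kept bins, or 0.445%. They lay in 5 places: 4 bins near chr2:98463001-98467500, 2 near chr5:3000001-3002500, 2 near chr9:3025501-3030500, 4 from chr11:3030501-3031000 to chr11:3079001-3079500, and 2 at chr14:18209001-18210000. At chr2:98467001-98467500 the 2 IgG libraries with 10058-F4 held 47 and 194 reads and the 3 B4 IgG libraries 105, 40 and 203, beside 63 Pol2 reads with 10058-F4 and 79 in B4. Sums over the lowered bins are also given without these 14, a split made after seeing the data.

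Myc over IgG, the ratio of summed RPM at the lowered bins, was between 1.13 and 1.66 in the B cell states. With 10058-F4 it was 1.35 (95% counting interval 1.29 to 1.41), from 2993 Myc and 4826 IgG reads. In B4 it was 1.66 (1.58 to 1.74) for Myc replicate 1 and 1.16 (1.10 to 1.21) for replicate 2, each over the 3 B4 IgG libraries summed. In B0 it was 1.13 (1.08 to 1.18). Over all kept bins the ratios were 1.17 with 10058-F4, 2.03 and 1.37 in B4 and 1.20 in B0. These values depended on which bins the ranking took: ranked with a pseudocount of 1 RPM, Myc was below IgG with 10058-F4 (0.953) and in B0 (0.850), and likewise with a minimum of 40 reads (0.933 and 0.850), 250 bp bins (0.979 and 0.848) and thinning (0.986 and 0.884). IgG-rich bins were counted in all of these alternative rankings, here and below, and values without them were not computed. In B4, the state in which Myc and Pol2 were both profiled without 10058-F4, the lowered bins as ranked here had less Myc over IgG than kept bins in both replicates. The most raised bins were lower still, at 1.45 and 0.893. Lowered bins also held fewer Pol2 reads over both libraries, a median of 26 against 42 at kept bins, and the part of that was not tested.

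Without the 14 IgG-rich bins, Myc over IgG at the other 986 was 1.13 (1.07 to 1.20) with 10058-F4, 1.84 (1.75 to 1.95) and 1.07 (1.01 to 1.13) in B4, and 1.22 (1.16 to 1.28) in B0. Kept bins without IgG-rich ones gave 1.20 with 10058-F4, 2.13 and 1.39 in B4 and 1.24 in B0. The lowered bins were below kept bins in each of these with and without the IgG-rich bins, except with 10058-F4, where they were above them (1.35 and 1.17) only as long as the 14 were counted. In B0 without IgG-rich bins the kept value lay within the interval of the lowered bins. The 2 B4 Myc replicates differed from each other by more than the lowered and the kept bins did.

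In T4, Myc over IgG was 1.14 (1.07 to 1.22) at the lowered bins and 1.52 at kept bins, and without IgG-rich bins it was 1.75 (1.61 to 1.91) and 1.68. The order of lowered and kept bins in T4 thus turned round with 14 bins. Ranking with a pseudocount of 1 RPM gave lowered bins with a T4 ratio of 0.503, and a minimum of 40 reads, 250 bp bins or thinning gave 0.516 to 0.586. As 2 to the power of the median log2 per bin, T4 was 3.26 with 0.1 RPM added and 1.23 with 1 RPM added. T4 IgG had 0 reads in 58.7% of lowered bins, so the per-bin value rests largely on the RPM added. In T14 Myc over IgG was 0.58 (0.538 to 0.624) at the lowered bins and 0.326 at kept bins, so that the library labelled IgG held more reads than the one labelled Myc in both sets. Taken the other way round, the library labelled IgG over the library labelled Myc was 1.73 at the lowered bins and 3.07 at kept bins.

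**Figure D4:**
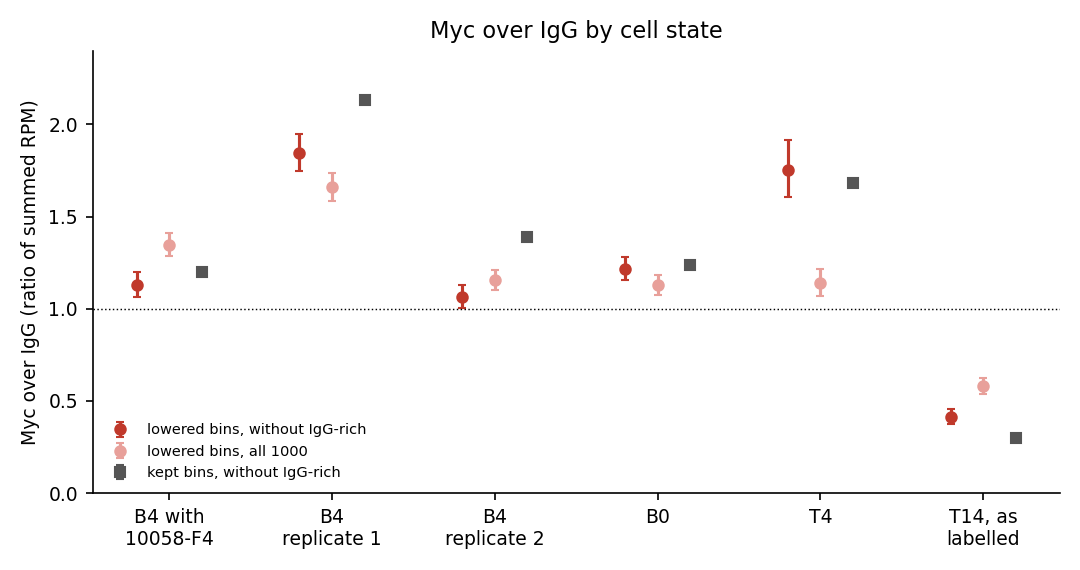
Myc over IgG (ratio of summed RPM, linear axis) in each state at the lowered bins without IgG-rich bins (dark red), at all 1000 lowered bins (light red) and at kept bins without IgG-rich bins (grey). Bars are 95% intervals for counting error only, and the dotted line marks equal Myc and IgG; the 2 B4 replicates, 1.84 and 1.07 in dark red, lie further apart than red from grey in either.

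Per bin, the counts were thin. A lowered bin held a median of 1 Myc read with 10058-F4 and 1 in each B4 Myc library, and 12.5% of lowered bins had no read in either B4 Myc library, against 6.76% of kept bins. Only 35 lowered bins had at least 20 Myc and IgG reads summed over the B4 libraries, 3.5% against 7.96% of kept bins, and 14 of the 35 were the IgG-rich ones. Myc at a single lowered bin was therefore mostly not measurable at this depth.

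Among the 35, the 5 with the highest Myc over IgG in B4 all had nearly equal Pol2 reads in both libraries and lay near the end of the ranking, at ranks 827 to 845. At chr1:88189501-88190000 Myc had 8 reads with 10058-F4, 43 and 30 in B4, 18 in B0 and 25 in T4. IgG there had 1 and 3 reads with 10058-F4, 0, 0 and 4 in B4, 1 in B0 and 2 in T4. Pol2 at this bin had 39 reads in both libraries, 7.60 RPM with 10058-F4 and 16.4 RPM in B4, a log2 ratio of -1.10.

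At chr7:99342501-99343000 Myc had 2 reads with 10058-F4 and 18 and 16 in B4, with 1 and 5 IgG reads with 10058-F4 and 2, 3 and 2 in B4. At chr17:46236001-46236500 it had 2 Myc reads with 10058-F4 and 12 and 11 in B4, at chr7:51729501-51730000 2, and 17 and 6, and at chr17:24843001-24843500 5, and 19 and 6. In all 5 bins Myc reads were fewer with 10058-F4 than in either B4 library, at 3311644 reads on chromosomes 1 to 19 with 10058-F4 and 2261410 and 3099793 in B4. These bins were picked for high B4 Myc, which favours that order.

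The 5 with the lowest Myc over IgG included 1 IgG-rich bin and 2 bins of the domains above, chr4:44992001-44992500 and chr2:34773501-34774000. At chr15:62011501-62012000 Myc had 4 reads with 10058-F4 and 3 and 1 in B4, and IgG had 2 and 5 with 10058-F4 and 11, 1 and 6 in B4. At chr15:61819501-61820000, B4 Myc replicate 1 held 16 reads and B4 IgG replicate 1 held 31, while every other B cell Myc or IgG library held 0 to 4. That bin's place among the lowest thus rests on B4 IgG replicate 1 alone.

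The test of Myc against IgG in B4 used limma with voom weights over the 10 B cell Myc and IgG libraries, which the ranking did not use. Of the 1000 lowered bins, 463 had at least 2 reads per library on average and entered the fit of 31609 kept bins in all. B4 Myc was higher than B4 IgG at an adjusted p below 0.05 in 0.636% of the bins fitted (201 of 31609) and lower in 0%. Among the 463 lowered bins it was higher in 2. The 2 were chr1:88189501-88190000 (log2 difference 5.11, SE 0.90, limma adjusted p = 8.727e-05) and chr7:99342501-99343000 (2.996, SE 0.82, limma adjusted p = 0.04483). The median log2 difference was 0.33 over the lowered bins fitted and 0.61 over all bins fitted.

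The count among the lowered bins was too small to set beside 0.636% with any precision. It was 1 without B4 Myc replicate 1, B4 IgG replicate 1, B4 IgG replicate 3 or either IgG library with 10058-F4, 4 without B4 Myc replicate 2 and 5 without B4 IgG replicate 2. The count over all bins ran from 3 without B4 IgG replicate 3 to 555 without B4 IgG replicate 2, and was 5 without B4 Myc replicate 1, 10 without B4 IgG replicate 1, 72 and 90 without the 2 IgG libraries with 10058-F4, and 408 without B4 Myc replicate 2.

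Myc over IgG with 10058-F4, divided by Myc over IgG in B4 with replicates summed, was 0.985 (95% counting interval 0.929 to 1.04) at the lowered bins and 0.713 at kept bins. Without IgG-rich bins the ratios were 0.811 and 0.703. The value at the lowered bins depended on which B4 Myc library was used: 1.17 without replicate 1 and 0.813 without replicate 2, and 1.06 and 0.613 without IgG-rich bins. Lower Myc at these bins with 10058-F4 was therefore not larger than the difference between the 2 B4 Myc libraries. In the limma fit of that change, 0% of the 31609 bins passed in either direction, with 238 higher and 766 lower at an unadjusted p below 0.05. Of the 463 lowered bins, 0 passed, with 5 higher and 13 lower before adjustment. At chr1:88189501-88190000 the change was -3.23 (SE 1.496, limma adjusted p = 0.9997). On simulated libraries this contrast found 2 of 100 bins raised 8-fold, and decreases were not simulated, so the absence of calls says little.

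The change from LPS was likewise not resolved. For Myc minus IgG in B4 against that in B0, limma called 0% of bins in either direction, with 643 higher and 243 lower before adjustment, and 2 higher and 6 lower among the 463 lowered bins. The median change was 0.11 on the log2 scale at the lowered bins and 0.33 over all bins fitted. The same contrast found 4 of 100 simulated bins raised 8-fold, and decreases were not simulated. Chromosome X reads were 42.0% of those on chromosome 3 in B0 Myc and 65.6% and 69.8% in B4 Myc. The part of that difference in this contrast was not tested.

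IgG gives the background of the lowered bins in each treatment. Summed IgG RPM with 10058-F4 over that in B4 was 0.972 (95% counting interval 0.937 to 1.01) at the lowered bins and 1.11 at kept bins. The value at the lowered bins turned round with the ranking: 1.47 with a pseudocount of 1 RPM, 1.52 with a minimum of 40 reads, 1.54 with 250 bp bins and 1.44 after thinning. Without IgG-rich bins it was 0.979 (0.936 to 1.02) and 1.08. Mean IgG at the lowered bins was 0.652 and 0.678 RPM in the 2 libraries with 10058-F4 and 0.703, 0.901 and 0.628 RPM in the 3 B4 libraries. The libraries with 10058-F4 lay within the range of the B4 libraries. At kept bins IgG was 0.753 and 0.618 RPM with 10058-F4 and 0.567, 0.992 and 0.509 RPM in B4, where replicate 2, marked wt like B4 Pol2, stood above the other 2.

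The IgG library of 10058-F4 and the one of B4 that match their Pol2 libraries in chromosome X reads gave a ratio of 0.723 at the lowered bins and 0.759 at kept bins. In the other chromosome X set, IgG replicate 2 with 10058-F4 gave 0.965 over B4 IgG replicate 1 and 1.08 over replicate 3 at the lowered bins. At kept bins these were 1.09 and 1.22. Which IgG library belongs to which Pol2 library is not stated in the labels. In limma, IgG with 10058-F4 differed from B4 IgG in 0% of 31609 bins in either direction and in 0 of the 463 lowered bins. Each IgG group held libraries of both chromosome X sets, and the fit had no term for the set. At an unadjusted p below 0.05 there were 524 bins higher and 277 lower, 8 and 4 of them lowered bins. On simulated libraries this test found 89 of 100 bins raised 8-fold and 31 of 100 raised 4-fold, and decreases were not simulated. Those libraries shared a common profile, while real replicates differed (chi-square over its degrees of freedom, 12.9 to 69.7). Recovery in the real libraries was thus not measured, and the 0 calls do not show that IgG was unchanged. At the lowered bin chr12:4900001-4900500 the IgG difference was 2.96 on the log2 scale (SE 1.07) and was not called.

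**Figure D5:**
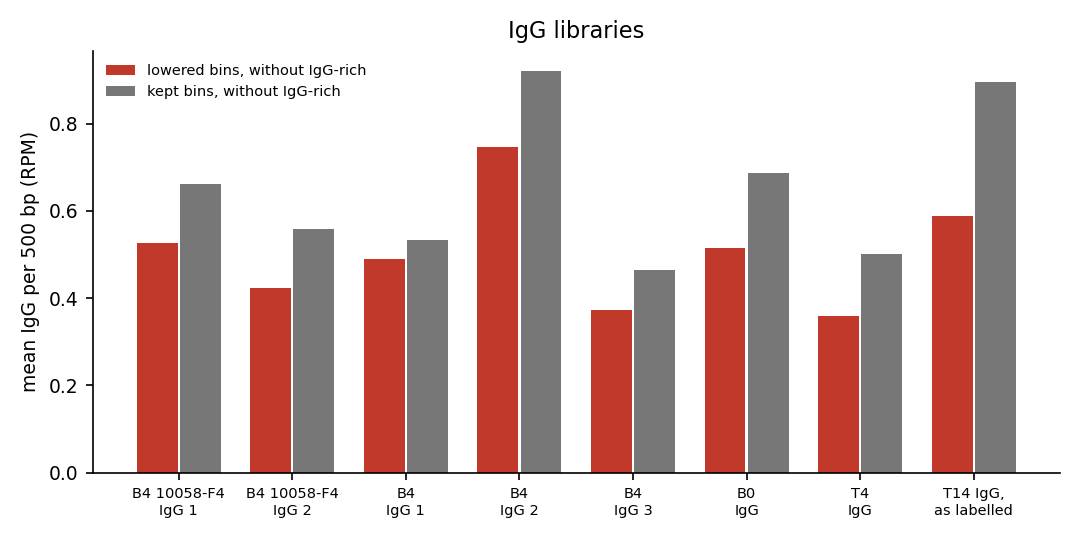
Mean IgG per 500 bp (RPM, linear axis from 0) in each of the 8 IgG libraries, at the lowered bins without IgG-rich bins (red) and at kept bins without IgG-rich bins (grey). In every library the lowered bins are below the kept bins, and B4 IgG replicate 2 is the highest of the 5 B4 libraries with or without 10058-F4.

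Relative to their own genome, the lowered bins held 13.0 times the mean Pol2 of chromosomes 1 to 19 with 10058-F4 and 38.1 times in B4, against 42.7 and 28.4 times for kept bins. For Myc the lowered bins were at 4.45 times the mean with 10058-F4, at 5.63 and 3.93 times in B4, and at 3.63 times in B0. IgG was at 3.21 and 3.34 times the mean with 10058-F4 and at 3.46, 4.44 and 3.09 times in B4. The lowered bins were above the genome's mean in Pol2 with 10058-F4, but the choice of bins favours this. Kept bins had to hold a minimum of Pol2 reads summed over both Pol2 libraries, and the lowered bins were then ranked on the same libraries. The Pol2 values relative to the mean, and their order against kept bins, are therefore a description and no test. Myc was above all IgG libraries of its treatment in B4 replicate 1 and within their range in B4 replicate 2. With 10058-F4 it was above both IgG libraries over all 1000 bins, but without the 14 IgG-rich bins mean Myc was 0.513 RPM, between the 0.526 and 0.423 RPM of the 2 IgG libraries.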

How the data were processed

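Per the labels, the antibody to Pol2 was Abcam ab5408, the IgG was Santa Cruz SC-2025 and the Myc libraries used a Clontech antibody. Each deposited file lists aligned reads, 1 per line, with chromosome, first and last position, length and strand; they hold no count per region. Per the submitters' processing notes, CASAVA 1.0, Bowtie 0.12.7 and build mm8 were used; settings are not given in the sources used here. The files are sorted by position, and whether positions start at 0 or 1 is not stated.

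Reads were counted by midpoint in 500 bp bins (Python 3.11.15, numpy 2.4.6, pandas 2.3.3, scipy 1.17.1) and scaled to RPM of chromosomes 1 to 19, without spike-in. Read length was 24 to 30 bases in replicate 1 of B4 Myc and of B4 IgG, 25 in T cells and 45 in the others. Lists of 1 read per position were tried, which removed 5.29% of B4 Myc replicate 1 and at most 0.081% elsewhere. Replicate libraries were not identical (chi-square over its degrees of freedom, 12.9 to 69.7), so each was counted on its own. The intervals are exact binomial at 95% and cover counting error only; reads without molecular identifiers are not independent molecules.

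Tests used limma 3.58.1 (R 4.3.3) with voom weights in 1 fit over 10 B cell libraries, on bins whose mean over these libraries was at least 2 reads and Benjamini-Hochberg adjustment; groups of 1 library are assumed to vary like the replicated ones. Each contrast was tested on simulated data with 100 bins raised 4-fold and 100 raised 8-fold in 1 group of the contrast. Only calls in that direction were counted as found, and decreases were not simulated. Apart from these bins the simulated libraries shared a common profile, without differences between libraries like those of the real ones. No test was run on Pol2, on T cells or over the lowered bins as a set. Named regions were the 10 domains with the most lowered bins, the 5 bins of lowest ratio, the 5 of highest B4 Pol2, the 5 highest and 5 lowest in B4 Myc over IgG among those with at least 20 such reads, and the 3 bins on either side of the last rank. The bins, regions and tests were chosen with earlier results of these data known. Alternatives covered pseudocount, minimum reads, bin width, read placement, scaling, thinning, domain gap, filters, limma-trend, and leaving out libraries.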

Additional observations from a re-analysis of the deposited data

How the results depend on the processing

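Which bins rank lowest depended strongly on the minimum of reads, the bin width and the depth, and less on other settings. With a minimum of 10 Pol2 reads, 104 of the 1000 lowered bins stayed among the lowest 1000. The number was 179 with a minimum of 40, 372 with 250 bp bins, 420 with 1000 bp bins and 494 with the Pol2 library with 10058-F4 thinned to the depth of the other. The median Pol2 log2 ratio, -1.35 as given, was -2.50, -0.72, -1.19, -1.65 and -1.19 in that order, -1.41 with reads placed at the fragment centre, and -0.996 with scaling by 10 kb background windows. That scaling moved the median of all kept bins by 0.38 and left all 1000 lowered bins below 0, as a shift of that size must with a last ratio of -1.07. All 1000 also stayed among the lowest 1000 with that scaling and with 1 read per position, but neither bears on the ranking. The scaling multiplies each library by a constant, and 1 read per position removed 0% of the reads of both Pol2 libraries. The number was 933 with a pseudocount of 1 RPM and 719 with reads at the fragment centre. Kept bins within 10 kb that were not lowered bins had a median of 0.16, and ranking on a random part of the reads gave -0.73 in the other part. The planned ranking on odd-numbered and reading from even-numbered reads is not given: in files sorted by position alternate reads divide every bin almost evenly, so those parts are not independent. The share in domains of 2 or more, 43.3%, was 32.1% with the minimum of 10 reads, 32.7% with 40, 36.0% with 250 bp bins and 37.5% after thinning. It was 22.6% for adjacent bins, 31.3% with gaps up to 1 kb and 52.7% with gaps up to 20 kb.

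Myc over IgG moved with the set of bins, also with a pseudocount of 1 RPM, where 933 of the 1000 bins were shared. None of the alternative rankings left out IgG-rich bins. With 10058-F4 (1.35) it was 0.953 when ranked with a pseudocount of 1 RPM, 1.24 and 0.933 with minimums of 10 and 40 reads, 0.979 and 1.23 with 250 and 1000 bp bins and 0.986 after thinning. In B4 replicate 1 (1.66) it was 1.28, 1.05, 1.56, 1.38, 1.40 and 1.35 in the same order, and 1.74 with background scaling. In B4 replicate 2 (1.16) it was 0.892 and 1.33 with the minimums of 10 and 40 reads and 1.28 and 0.971 with 250 and 1000 bp bins. As 2 to the power of the median log2 per bin, with 0.1 and then 1 RPM added, it was 1.06 and 1.02 with 10058-F4, 1.11 and 1.06 in B4 replicate 1 and 0.931 and 0.959 in replicate 2. In B0 (1.13) it was 0.850 with a pseudocount of 1 RPM and 0.848 to 0.884 with the minimum of 40 reads, 250 bp bins or thinning, and in T4 (1.14) 0.503 and 0.516 to 0.586. As 2 to the power of the median log2 per bin, T4 was 3.26 with 0.1 RPM added and 1.23 with 1 RPM added. IgG with 10058-F4 over B4 (0.972) was 1.47 with a pseudocount of 1 RPM, 0.925 and 1.52 with the minimums of 10 and 40 reads, 1.54 with 250 bp bins and 1.44 after thinning; the cause was not tested. Without the 14 IgG-rich bins, a choice made after seeing the data, Myc over IgG was 1.13 with 10058-F4 and 1.84 and 1.07 in the B4 replicates, and its change with 10058-F4 was 0.811. Leaving out 1 library at a time gave 0.885 to 1.02 for this IgG ratio, 1.33 to 1.39 for Myc over IgG with 10058-F4, 1.51 to 1.74 and 1.05 to 1.21 for the B4 replicates, and 0.813 to 1.17 for the change with 10058-F4.

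In limma, B4 Myc was higher than IgG in 201 bins as given, in 19 with limma-trend, in 904 with at least 4 reads per library, in 95 without a filter and in 3 to 555 leaving out 1 library. Of the lowered bins, 2 were higher as given, 1 with limma-trend, without a filter or with background scaling, 8 with at least 4 reads per library (32 lowered bins fitted), 4 with only the libraries of the contrast, and 1 to 5 leaving out 1 library. With the replicate block for the 2 pairs that the titles form, and B4 IgG replicate 2 left out, 818 bins were higher and 1 lower, 9 of the lowered bins among the higher ones; the changes of Myc minus IgG with 10058-F4 and with LPS had 0 calls under the block, which was not fitted for IgG with 10058-F4 against B4. The pairs share only a title mark, and no label ties them. IgG with 10058-F4 against B4 had 0 calls as given and 0 to 10 bins higher leaving out 1 library, the 10 without B4 IgG replicate 2. No other alternative gave a call in that comparison or in the changes with 10058-F4 or LPS.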

Other observations

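The most raised bins, at the other end of the same ranking, had log2 ratios of 3.08 to 7.02, with a median of 28 Pol2 reads with 10058-F4 and 1 in B4. Their Myc over IgG was 0.924 with 10058-F4, 1.45 and 0.893 in the B4 replicates and 1.21 in B0, beside 1.35, 1.66 and 1.16, and 1.13 at the lowered bins. IgG with 10058-F4 over B4 was 1.21 (95% counting interval 1.16 to 1.26) at the most raised bins and 0.972 (0.937 to 1.01) at the lowered bins. Kept bins at 5.5 to 10 kb from the most raised bins had a median log2 ratio of 1.05, against 0.19 at that distance from lowered bins and 0.63 from kept bins. Both ends were chosen on the same 2 Pol2 libraries, so these values describe positions and are not tests.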
